A study of Mus musculus with 9 samples.

Results

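The proteasome genes of C2C12 cells, a mouse myoblast line, were described across 3 groups of 3 RNA-seq libraries. The set held 39 of the 53700 genes in the count table, picked by symbol: the 7 alpha and 7 beta subunits of the 20S core, 6 ATPase and 11 non-ATPase subunits of the 19S cap, 4 activators, 1 inhibitor, 2 assembly factors and the transcription factor Nfe2l1. All 39 were found, and all passed the filter on low counts. No measured value entered the rule that picked them, though earlier results of these data were known. Gene positions are those of GENCODE M21 on GRCm38.

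The proteasome is the chamber in which cells break down proteins tagged with ubiquitin. Its barrel, the 20S core, is built of stacked alpha and beta rings. The beta rings hold the protease sites and the alpha rings gate the entrance. The 19S cap sits on the end of the barrel, where it binds ubiquitin chains, removes them and unfolds the protein with a ring of ATPases. In muscle, the ubiquitin and proteasome system is known as a main route of protein loss in wasting.

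All wells were first starved for 12 h in OPTI-MEM, a medium low in serum, and Control wells were taken at that point. In the Valine group the branched-chain amino acid valine followed at 0.45 mM for 36 h. In the Val+PA group 0.45 mM valine was given for 24 h, and palmitic acid, a saturated fat, at 75 µM for 12 h. The 3 wells of a group came from a single plate, chosen at random, and p-values therefore cover only the spread between such wells. Treatment, hours in culture and plate cannot be told apart in either comparison with Control, and both comparisons share the same Control libraries.

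Libraries held 26750226 to 35976589 counts, and levels are given in CPM, the counts scaled by library size and TMM factor, where 1 count equals 0.0271 to 0.0403 CPM. Control 3 and Val+PA 2 stood apart from their groups. Their chi-square per degree of freedom against libraries of the same group ran from 51.8 to 118.8, against 4.01 to 20.3 for the other pairs. Among proteasome genes, Control 3 lay further from both other Control libraries than those lay from each other in 28 of 39 members, and Val+PA 2 did so within its group in 23. Counts of calls are therefore also given without both libraries. Among the genes named here, Psmb5, Psmd1, Ddi2 and Mafg share exon sequence with a neighbour on the same strand, and Psma4, Psma5, Psmb7, Psmb9, Psmc3, Psmd1, Psmd3, Psmd13, Psme1, Nlrc5, Vcp, Syvn1, Mafk, Fbxo32 and Csf1r with one on the other strand, so their counts are uncertain. The 5 myoblast markers summed to 2052 to 2355 CPM in Control, 3336 to 3530 in Valine and 3196 to 5179 in Val+PA. Endothelial markers summed to at most 3.49 CPM, immune markers to 7.06, epithelial markers to 0.769 and adipocyte markers to 0.652, and Adipoq, Lep, Emcn and Epcam were at 0 in every library. The endothelial and immune sums were also lowest in Control, at 0.524 to 1.09 and 1.81 to 2.98 CPM, and the part of these markers in the results was not tested.

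More proteasome genes fell than rose in both treated groups, and the 2 that rose in each were Nfe2l1 and the activator gene Psme1. For Valine against Control, 20 of the 39 genes fell and 2 rose, where 21.1% of all 18415 genes tested fell and 20.8% rose (edgeR quasi-likelihood test, two-sided, Benjamini-Hochberg adjusted p under 0.05). The median log2 fold change was -0.34 over the members and -0.01 over all genes tested. For Val+PA against Control, 15 members fell and 2 rose, beside 18.8% and 20.4% of all genes, with medians of -0.26 and 0.00. In 25 members every Valine library lay below every Control library, beside 29.2% of all genes, and in 15 members every Val+PA library did so, beside 22.1%. In 3 members every Valine library lay above Control, beside 29.7% of all genes, and in 3 every Val+PA library, beside 23.5%. Because the RNA came from whole wells, fewer cells of a type and less RNA per cell cannot be told apart.

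The shift was seen in each treated library. The median member stood at -0.32, -0.30 and -0.30 on the log2 scale against the Control mean in the 3 Valine libraries, and at -0.29, -0.28 and -0.27 in the 3 Val+PA libraries. In the Control libraries it stood at 0.01, -0.05 and 0.06. The 39 genes took 0.619% to 0.634% of all counts in Control, 0.564% to 0.572% in Valine and 0.595% to 0.604% in Val+PA. These ranges, which do not use the TMM factor, did not overlap between any of the 3 groups. In CPM the members summed to 6159 to 6829 in Control, 5507 to 5571 in Valine and 5812 to 6167 in Val+PA. On that scale the Val+PA range overlapped that of Control.

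**Figure D1:**
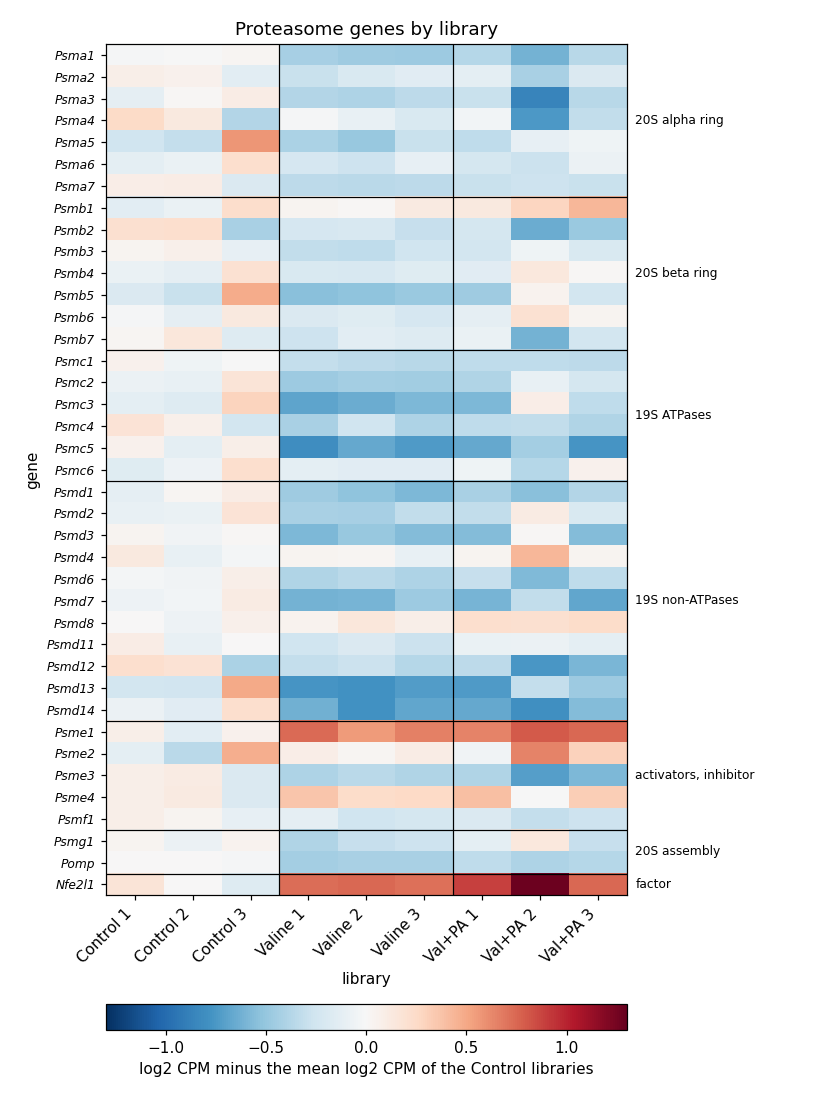
Log2 CPM of each proteasome gene (rows, grouped by role) in each library (columns), as the difference from the mean log2 CPM of the Control libraries. Blue marks lower and red higher values; the 19S rows are mostly blue in the treated libraries, Psme1 and Nfe2l1 are red, and Control 3 and Val+PA 2 differ from their neighbours in many rows.

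The number of calls depended on single libraries while the direction of the median did not. Without Control 3 and Val+PA 2, 27 members fell and 4 rose for Valine (27.2% of all genes fell in that fit), and 23 fell and 6 rose for Val+PA (24.6%). Without Valine 1, 12 members fell and 2 rose for Valine, where 15.01% of all genes fell. The members that passed in the full fit and in each of the 9 fits without 1 library were 12 lower and 2 higher for Valine and 10 lower and 2 higher for Val+PA. Psma1, Psmc1, Psmc5, Psmd1, Psmd6, Psmd7, Psmd14 and Pomp, all lower, and Psme1 and Nfe2l1, both higher, met this in both comparisons. The share of all genes that met the same rule was not counted, so these counts cannot be set against it.

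The 19S cap held most of the calls. For Valine, 13 of 17 cap genes fell, with a median log2 fold change of -0.40, and 5 of 14 core genes fell, with a median of -0.24. For Val+PA, 9 of 17 cap genes and 4 of 14 core genes fell, with medians of -0.35 and -0.24. These were 76.5% of cap and 35.7% of core genes for Valine, beside 21.1% of all genes tested. For Val+PA they were 52.9% and 28.6%, beside 18.8%. No gene of either rose in these fits of all libraries. In the 9 fits without 1 library, the cap count for Valine ran from 10 to 13 and the core count from 1 to 6, with 1 core gene whenever any Valine library was left out. Of all genes, 15.01% to 24.7% fell in these fits, and 15.01% to 15.72% where a Valine library was left out. Without Control 3 and Val+PA 2, 14 cap and 9 core genes fell for Valine, beside 27.2% of all genes, and 12 cap and 8 core genes for Val+PA, beside 24.6%. In that fit Psmb1 (0.40, adjusted p = 0.000641) and Psmd8 (0.27, adjusted p = 0.00226) rose with Val+PA. The difference between cap and core was not tested.

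**Figure D2:**
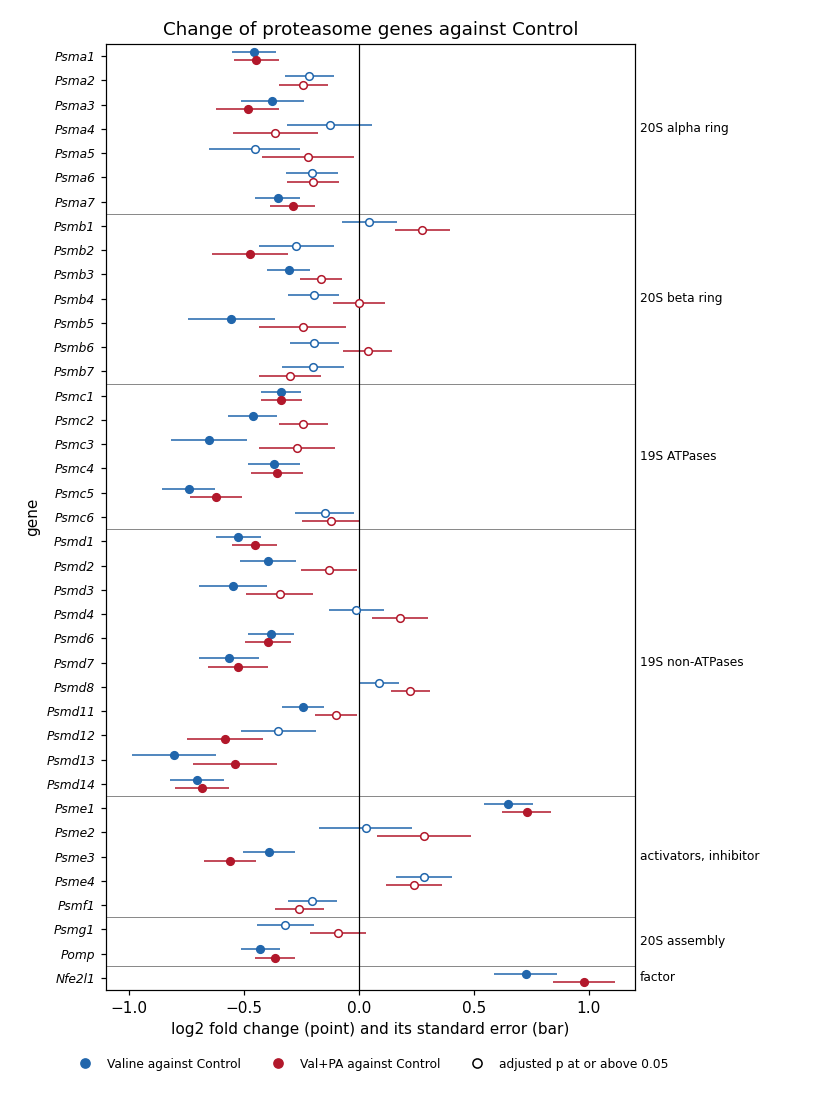
Log2 fold change (horizontal axis, points) with its standard error (bars) for each proteasome gene (vertical axis, grouped by role), for Valine and Val+PA against Control; filled points have an adjusted p under 0.05. Most 19S points lie left of 0, and those of Psme1 and Nfe2l1 lie right of 0 in both comparisons.

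The 19S ATPases, which form the ring that pulls the protein into the core, had 5 of 6 genes lower with Valine and 3 of 6 with Val+PA. Of all genes tested, 21.1% and 18.8% fell. Psmc5 (chr11:106256154-106263120, plus strand) stood at 61.2, 54.0 and 62.2 CPM in Control, 33.6, 37.2 and 35.4 in Valine, with 37.2, 43.4 and 34.7 in Val+PA. Every treated library lay below every Control library. Psmc5 fell 1.67-fold with Valine (log2 fold change -0.74, SE 0.11, adjusted p = 0.000286) and 1.54-fold with Val+PA (-0.62, SE 0.11, adjusted p = 0.001). This was the smallest adjusted p of any member for Valine. Psmc3 stood at 280, 274 and 375 CPM in Control, 190.5, 196 and 204 in Valine, with 204, 324 and 243 in Val+PA. Control 3 and Val+PA 2 were the high libraries of their groups, and the Val+PA range overlapped that of Control. Psmc3 fell with Valine (-0.65, SE 0.17, adjusted p = 0.00752) and did not pass with Val+PA (-0.27, SE 0.17, adjusted p = 0.224). Without Val+PA 2 it passed there too (-0.47, adjusted p = 0.0179). Psmc1 and Psmc4 fell in both groups, by 0.34 and 0.37 on the log2 scale with Valine, and Psmc2 fell with Valine by 0.46. Without Val+PA 2, Psmc2 passed with Val+PA too (-0.31, adjusted p = 0.0243). Psmc4 lost its call for Valine without Control 1, Control 2, Valine 1 or Valine 3, at an adjusted p of 0.0689 to 0.0958. Its Val+PA call ended without Control 1, Control 2 or Val+PA 3, at 0.0868 to 0.118. Psmc1 kept both calls whichever 1 library was left out and lost both with no filter on low counts (adjusted p of 0.0636 and 0.0694). Psmc6 had a log2 fold change of -0.15 with Valine (adjusted p = 0.373).

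The 19S non-ATPase subunits form the lid, the scaffold and the ubiquitin receptors of the cap. With Valine 8 of 11 fell and with Val+PA 6 of 11, beside 21.1% and 18.8% of all genes. Psmd14 (chr2:61711694-61800376, plus strand), the deubiquitinase that cuts ubiquitin chains from the substrate, stood at 127, 121 and 156 CPM in Control, 87.2, 77.5 and 83.7 in Valine, with 84.3, 77.1 and 90.8 in Val+PA. The Control libraries lay above all 6 treated libraries. Psmd14 fell 1.63-fold with Valine (-0.70, SE 0.12, adjusted p = 0.000514) and 1.60-fold with Val+PA (-0.68, SE 0.12, adjusted p = 0.000661). Its structural partner Psmd7, the least abundant member in CPM at 10.1 to 17.3 over all libraries, fell with Valine (-0.56, SE 0.13, adjusted p = 0.00433) and with Val+PA (-0.53, SE 0.13, adjusted p = 0.00679). The scaffold gene Psmd1 fell in both, by 0.52 and 0.45 on the log2 scale.

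Psmd13 (chr7:140881968-140898643, plus strand), a lid subunit that shares 342 bp of exon with a gene on the other strand, stood at 138, 136.5 and 228 CPM in Control, 95.1, 93.9 and 98.5 in Valine, with 97.4, 131.5 and 117 in Val+PA. Control 3 was far above the other Control libraries, and all treated libraries lay below all Control libraries. It had the largest log2 fold change of the members for Valine (-0.80, SE 0.18, adjusted p = 0.00408), and it fell with Val+PA (-0.54, SE 0.18, adjusted p = 0.0344). Without Control 3 it still fell with Valine (-0.51, adjusted p = 0.00559) but did not pass with Val+PA (-0.25, adjusted p = 0.119). The Val+PA call also ended without Val+PA 1, Val+PA 3 or any 1 Valine library, at an adjusted p of 0.0518 to 0.11.

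Psmd2, a scaffold subunit of the base, stood at 384, 386 and 462 CPM in Control, 306, 302 and 328 in Valine, with 328.5, 440 and 357 in Val+PA. The Valine libraries lay below Control, and Val+PA 2 lay within the Control range. Psmd2 fell with Valine (-0.40, SE 0.12, adjusted p = 0.0221) and did not pass with Val+PA (-0.13, SE 0.12, adjusted p = 0.432). The call ended without Control 3, Valine 1 or Valine 2, at an adjusted p of 0.0677 to 0.0832. Psmd12, a lid subunit, stood at 50.5, 49.5 and 32.7 CPM in Control, 34.9, 35.8 and 33.6 in Valine, with 34.3, 25.6 and 28.8 in Val+PA. Control 3 was the low library here and overlapped the treated groups. Psmd12 fell with Val+PA (-0.58, SE 0.16, adjusted p = 0.014) and did not pass with Valine (-0.35, SE 0.16, adjusted p = 0.105). Without Control 3 it passed with Valine (-0.52, adjusted p = 0.00645), and without Control 1 or Control 2 it did not pass with Val+PA (adjusted p of 0.0622 and 0.0587).

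Among the other non-ATPases, the lid genes Psmd3, Psmd6 and Psmd11 fell with Valine, by 0.55, 0.38 and 0.24 on the log2 scale. Psmd6 fell with Val+PA as well, by 0.39, and without Val+PA 2 so did Psmd3 (-0.56, adjusted p = 0.000431). Psmd11 lay near the threshold with Valine (adjusted p = 0.0477) and lost its call without Control 1, Control 3, Val+PA 1, Val+PA 3 or any Valine library. The ubiquitin receptor gene Psmd4 had a log2 fold change of -0.01 with Valine (SE 0.12, adjusted p = 0.948) and 0.18 with Val+PA (SE 0.12, adjusted p = 0.271). Psmd8, a lid subunit, stood at 235, 225 and 245 CPM in Control, 243, 260 and 247 in Valine, with 274, 272 and 278 in Val+PA. Its Val+PA libraries lay above all Control libraries, which no other 19S gene showed, at a log2 fold change of 0.22 (SE 0.09, adjusted p = 0.0573). It passed for Val+PA in 9 of 21 alternatives, among them DESeq2 (adjusted p = 0.0349) and limma-voom (0.0483).

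A short motif was frequent in the promoters of the 19S genes. RefSeq windows from 250 bases before to 50 bases after the start site (GRCm38.p6) were given for 33 members, with none for Psmb1, Psmb2, Psmb7, Psmc3, Psmd3 and Psmd7. CCGGAAG, the core bound by ETS factors, was searched on both strands. It was in a window of 9 of 14 cap genes (64.3%) and 1 of 11 core genes (9.09%). Over all 27025 genes with a window it was in 9.93%, and over those that were tested in 18.8%. The stretches below are shown because they carry that motif before the start site. Each runs in the direction of the gene with the motif in capitals, written CTTCCGG where the match lies on the opposite strand.
Psmc1: ggtggatgcaCTTCCGGcggtggcgat
Psmc2: cgcggagctaCTTCCGGtggggaagag
Psmc6: ggcgggccagCCGGAAGgggcggagcc
Psmd2: ccgcagggcgCTTCCGGtctggaggac
Psmd4: tacagctgttCCGGAAGctgctgcgaa
Psmd6: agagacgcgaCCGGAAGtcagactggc
Psmd11: gagggcgggtCTTCCGGgtgt
Psmd12: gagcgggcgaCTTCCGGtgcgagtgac

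In GRCm38.p6 these lie at chr12:100110164-100110190 (plus strand) for Psmc1, chr5:21786713-21786739 (plus) for Psmc2, chr14:45329714-45329740 (plus) for Psmc6 and chr16:20651616-20651642 (plus) for Psmd2. Those of Psmd4 and Psmd6 lie at chr3:95042723-95042749 (minus) and chr14:14120974-14121000 (minus), and those of Psmd11 and Psmd12 at chr11:80428594-80428614 (plus) and chr11:107479501-107479527 (plus). The motif began 11 to 125 bases before the start site. The match of Psmd13 began 6 bases before the start site and ran across it, and neither it nor the match in another window of Psmc2 is shown. Of the 9 cap genes with the motif, 6 fell with Valine, with a median log2 fold change of -0.35 over the 9. Of the 5 without it, 4 fell, with a median of -0.52. Of all genes tested, 21.1% fell with Valine. The genes without it were Psmc4, Psmc5, Psmd1, Psmd8 and Psmd14, which include both the cap gene with the smallest adjusted p and the 1 with a positive log2 fold change. A match is a description of these letters and not of a bound site.

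In the 20S core the alpha ring, which gates the chamber, had 3 of 7 genes lower in each treated group, namely Psma1, Psma3 and Psma7. Of all genes tested, 21.1% fell with Valine and 18.8% with Val+PA. Psma1 (chr7:114264606-114276118, minus strand) stood at 202, 203 and 207 CPM in Control, 152, 149 and 147 in Valine, with 158, 133 and 159 in Val+PA. The Control libraries were close to each other and lay above all treated libraries. Psma1 fell 1.37-fold with Valine (-0.46, SE 0.10, adjusted p = 0.00243) and 1.36-fold with Val+PA (-0.45, SE 0.10, adjusted p = 0.00292). Psma3 and Psma7 fell with Valine by 0.38 and 0.35 on the log2 scale (adjusted p of 0.0423 and 0.0123). Psma7 also fell with Val+PA (-0.29, adjusted p = 0.0344), a call that held only without Control 3 or Val+PA 2 when 1 library was left out. Psma3 lost the Valine call without Control 2, Control 3, Val+PA 3 or any Valine library, and Psma7 without Control 1, Control 2 or any Valine library. Psma5 stood at 200.5 and 192 CPM in Control 1 and 2 and 355 in Control 3, with 170.5 to 196 in Valine, and did not pass (-0.45, adjusted p = 0.0858). Without Control 1 or Control 2 it passed (adjusted p of 0.0454 and 0.0304). Psma2, Psma4 and Psma6 had log2 fold changes of -0.22, -0.13 and -0.21 with Valine and did not pass. Without Val+PA 2, Psma2 passed with Valine (adjusted p = 0.0444), and without Control 3 Psma2 and Psma4 passed with Val+PA (-0.31 and -0.53, adjusted p of 0.0391 and 0.0263), as Psma4 did without Val+PA 1 (adjusted p = 0.0362).

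The beta ring holds the protease subunits Psmb6 (caspase-like), Psmb7 (trypsin-like) and Psmb5 (chymotrypsin-like). Psmb5 (chr14:54614119-54618022, minus strand), which shares 109 bp of exon with a gene on its strand, stood at 49.2, 45.9 and 78.2 CPM in Control, 38.5, 39.2 and 40.2 in Valine, with 40.8, 57.9 and 47.6 in Val+PA. The Valine libraries lay below all Control libraries, and Control 3 and Val+PA 2 were the high libraries of their groups. Psmb5 fell with Valine (-0.56, SE 0.19, adjusted p = 0.0332) and did not pass with Val+PA (-0.24, SE 0.19, adjusted p = 0.334). Without Control 3 the change with Valine was -0.27 (SE 0.14, adjusted p = 0.136), and the call also ended without any 1 Valine library, at an adjusted p of 0.0778 to 0.0982.

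Psmb6 stood at 226, 211 and 249.7 CPM in Control, 199.9, 204 and 196 in Valine, with 210.2, 262 and 233 in Val+PA. The Valine libraries lay just below Control and the Val+PA range overlapped it, with log2 fold changes of -0.19 (SE 0.11, adjusted p = 0.166) and 0.04 (SE 0.11, adjusted p = 0.801). Psmb7, which shares 405 bp of exon with a gene on the other strand, stood at 104, 112 and 90.4 CPM in Control, 84.3, 92.5 and 90.6 in Valine, with 96.2, 66.5 and 86.4 in Val+PA. The 3 groups overlapped, and Val+PA 2 was the lowest library, with log2 fold changes of -0.20 (SE 0.14, adjusted p = 0.265) and -0.30 (SE 0.14, adjusted p = 0.102). Without Control 3 or Val+PA 1 the latter passed, at an adjusted p of 0.049 and 0.0342. Of the structural beta subunits, Psmb3 fell with Valine (-0.30, adjusted p = 0.0208) and Psmb2 with Val+PA (-0.47, adjusted p = 0.0384). Neither call held without any 1 Valine library. The Psmb3 call also ended without Control 1 or Control 2, at an adjusted p of 0.064 and 0.0792. That of Psmb2 also ended without Control 1, Control 2, Val+PA 2 or Val+PA 3, at 0.101 to 0.143, and its Val+PA range overlapped Control. Psmb1 had a log2 fold change of 0.05 with Valine and 0.28 with Val+PA (adjusted p = 0.0839), and Psmb4 of -0.20 and 0.00. Psmb1 passed with Val+PA without Control 3 (0.40, adjusted p = 0.00969) or Val+PA 1 (0.35, adjusted p = 0.0449) and with library size alone (0.32, adjusted p = 0.0338).

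The antioxidant response element core TGACNNNGC, which NFE2L1 binds with small MAF proteins, was in a window of 5 of 33 members (15.2%), beside 14.0% of all genes with a window. The CCAAT box was in 12 of 33 (36.4%), beside 41.1%. Over the genes that were tested these shares were 16.7% and 42.9%. The CCAAT box was in 6 of 11 core genes (54.5%) and 4 of 14 cap genes (28.6%), the reverse order to CCGGAAG. The antioxidant element was in 2 of 11 core genes (18.2%) and 2 of 14 cap genes (14.3%). No match of 1 motif overlapped that of another in a member. The element was before the start site in 2 of the protease genes, for which it is shown.
Psmb5: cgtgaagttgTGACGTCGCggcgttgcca
Psmb6: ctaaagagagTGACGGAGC

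They lie at chr14:54618024-54618052 (minus strand) and chr11:70525338-70525356 (plus), and the capitals, which mark the element, began 47 and 9 bases before the start site.

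Nfe2l1 (chr11:96817414-96829968, minus strand) encodes the transcription factor NRF1, known in mammalian cells to drive proteasome genes when the proteasome is inhibited. It stood at 177, 158 and 141 CPM in Control, 261, 265 and 260.2 in Valine, with 291.5, 382 and 265 in Val+PA. All 6 treated libraries lay above all Control libraries, and Val+PA 2 was the highest. Nfe2l1 rose 1.65-fold with Valine (0.73, SE 0.14, adjusted p = 0.00115) and 1.97-fold with Val+PA (0.98, SE 0.14, adjusted p = 0.000144), the largest change of any member in the latter. Over the alternatives its log2 fold change ran from 0.65 to 0.81 with Valine and from 0.74 to 1.09 with Val+PA, and it passed in each.

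Both assembly factors act on the core. Pomp (chr5:147860461-147876456, plus strand), the maturation protein that joins incomplete cores, stood at 76.9, 76.6 and 75.9 CPM in Control, 56.3, 56.9 and 57.3 in Valine, with 60.9, 57.9 and 59.2 in Val+PA. Within each group the libraries were close together, with 76.5 ± 0.528 in Control and 56.8 ± 0.511 in Valine (SD, n = 3), and the groups did not overlap. Pomp fell 1.35-fold with Valine (-0.43, SE 0.09, adjusted p = 0.00187) and 1.29-fold with Val+PA (-0.36, SE 0.09, adjusted p = 0.00523). Psmg1, a chaperone of alpha ring assembly, stood at 33.5, 31.1 and 33.8 CPM in Control, 25.02, 26.6 and 27.2 in Valine, with 30.0, 36.0 and 26.6 in Val+PA. The Valine libraries lay below Control and the Val+PA range overlapped it. Psmg1 did not pass with Valine (-0.32, SE 0.12, adjusted p = 0.0539) or with Val+PA (-0.09, SE 0.12, adjusted p = 0.602). It passed for Valine in 6 of 21 alternatives, among them DESeq2 and the fits without Val+PA 2 or Val+PA 3 (adjusted p of 0.0398, 0.0108 and 0.0467).

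The activators, which open the core in place of the 19S cap, did not move together. Psme1 (chr14:55578123-55581529, plus strand), the alpha subunit of the PA28 activator, stood at 31.1, 26.8 and 30.7 CPM in Control, 49.2, 43.2 and 46.5 in Valine, with 46.2, 51.1 and 49.6 in Val+PA. All treated libraries lay above Control. Psme1 rose 1.57-fold with Valine (0.65, SE 0.11, adjusted p = 0.000451) and 1.66-fold with Val+PA (0.73, SE 0.11, adjusted p = 0.000204). Psme2, the beta subunit of that activator, stood at 62.8, 53.7 and 95.1 CPM in Control, 72.7, 69.7 and 73.2 in Valine, with 66.2, 107 and 84.1 in Val+PA. Control 3 and Val+PA 2 were high and the groups overlapped, with log2 fold changes of 0.03 (SE 0.20, adjusted p = 0.921) and 0.28 (SE 0.20, adjusted p = 0.298). Without Control 3 and Val+PA 2, Psme2 passed in both (0.31 and 0.37, adjusted p of 0.00986 and 0.00594), and without Control 3 alone it passed with Val+PA (0.56, adjusted p = 0.023). Its copy Psme2b held 1506, 1890 and 2229 counts in the 3 groups, so Psme2 is uncertain.

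Psme3, the nuclear PA28 gamma subunit, stood at 133, 136 and 111 CPM in Control, 95.3, 99.0 and 95.97 in Valine, with 96.4, 77.1 and 84.2 in Val+PA. All treated libraries lay below Control. Psme3 fell with Valine (-0.39, SE 0.11, adjusted p = 0.0157) and with Val+PA (-0.56, SE 0.11, adjusted p = 0.00197). The Valine call ended without Control 1, Control 2, Valine 1 or Valine 3, at an adjusted p of 0.056 to 0.0661. Psme4, the PA200 activator, stood at 362, 373 and 302 CPM in Control, 442.5, 407 and 411 in Valine, with 450.0, 342 and 431 in Val+PA. The Valine libraries lay above Control, while Val+PA 2 overlapped it. Psme4 did not pass with Valine (0.28, SE 0.12, adjusted p = 0.084) or with Val+PA (0.24, SE 0.12, adjusted p = 0.145), and without Val+PA 2 it passed in both, at an adjusted p of 0.0209 and 0.014. Psmf1, a regulator first known as an inhibitor of the core, stood at 26.8, 25.9 and 23.5 CPM in Control, 23.3, 21.2 and 21.7 in Valine, with 22.2, 20.5 and 20.99 in Val+PA. The treated libraries lay below Control, and Psmf1 did not pass with Valine (-0.20, SE 0.11, adjusted p = 0.147) or with Val+PA (-0.26, SE 0.11, adjusted p = 0.073). With DESeq2, and without Control 3, the latter passed (adjusted p of 0.0446 and 0.0357).

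**Figure D3:**
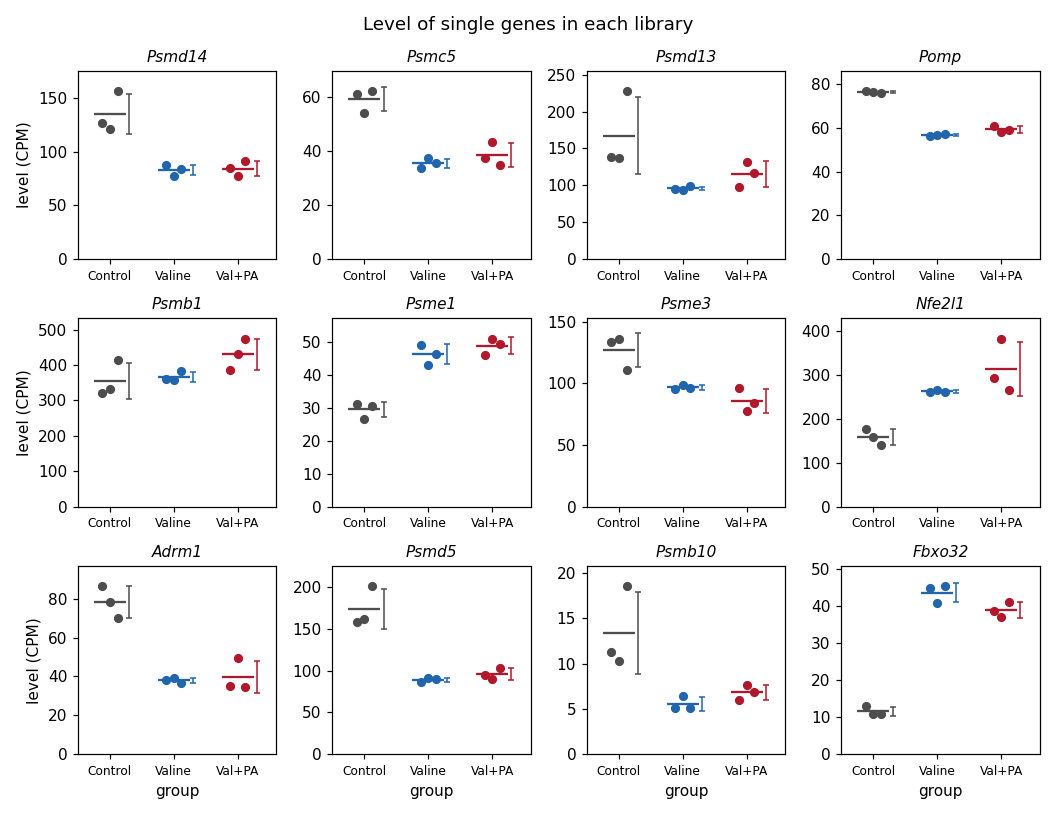
Level in CPM (vertical axis, from 0) of 12 genes in each library (points) by group (horizontal axis), with the group mean (line) and SD (bar, n = 3). Psmd14, Psmc5, Psmd13 and Pomp lie lower in all treated libraries, Psme1, Nfe2l1 and Fbxo32 lie higher, and the groups overlap for Psmb1.

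Levels were compared between genes only on the deposited length-scaled signal, for which no source used here states the gene lengths. On that signal the Control means of the 14 core genes ran from 61.2 for Psmb7 to 428 for Psmb4, with medians of 118 in the alpha ring and 158 in the beta ring. The Control means of the 19S genes ran from 14.5 for Psmd7 to 242 for Psmc3, with medians of 114 for the ATPases and 97.5 for the non-ATPases. In Valine the median level of the non-ATPases was 59.5 and that of the beta ring 155. Psmf1 was the lowest member in Control, at a signal of 8.06. The genes of 1 complex thus had unequal length-scaled RNA levels, with Psmb4 highest and Psmb7 lowest of the beta ring in all 3 groups.

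**Figure D4:**
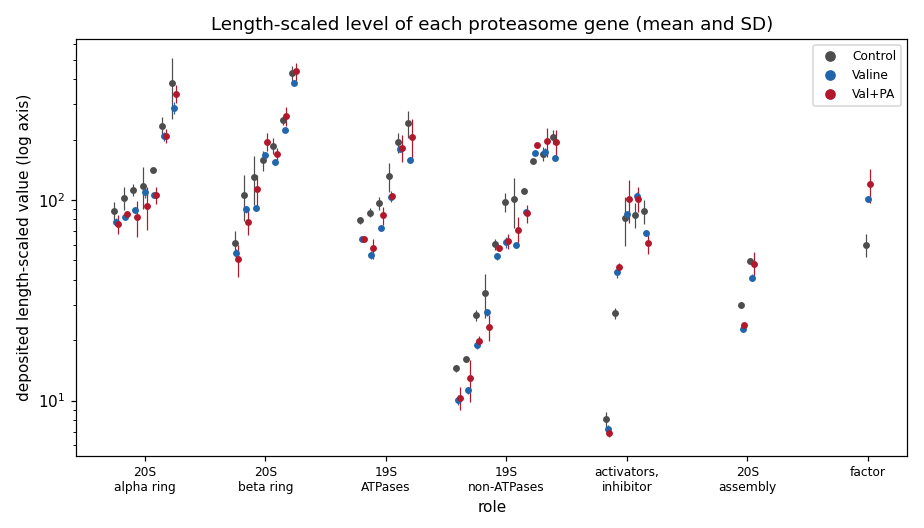
Deposited length-scaled signal (vertical log axis) of each proteasome gene, by role (horizontal axis), with the group mean (point) and SD (bar, n = 3) for Control, Valine and Val+PA. Core genes lie between 50.7 and 438 in all groups, and 19S genes reach down to Psmd7 at 10.1.

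Val+PA against Valine, the comparison that holds the palmitic acid step, gave no call among the members with the edgeR quasi-likelihood test, with DESeq2 or with limma-voom. Hours of valine, 36 in Valine and 24 in Val+PA, and plate cannot be told apart from palmitic acid here. Over all 18415 genes edgeR called 0% in either direction and DESeq2 called 212 of the 14844 genes to which it gave an adjusted p. At an unadjusted p under 0.05, 0 members were lower and 2 higher, beside 5.47% and 7.72% of all genes. These 2 were Psmc3 (log2 fold change 0.39, SE 0.17, adjusted p = 0.365) and Psmb6 (0.23, unadjusted p = 0.0494). The members ran from -0.24 for Psma4 to 0.39 for Psmc3, with a median of 0.07 against 0.00 over all genes, and SEs were 0.09 to 0.20. The largest after Psmc3 were Psmb5 (0.31, SE 0.19, adjusted p = 0.457), Psmd13 (0.27, SE 0.18, adjusted p = 0.498) and Psmd2 (0.27, SE 0.12, adjusted p = 0.38). In each of these genes Val+PA 2 was the highest Val+PA library. Nfe2l1 and Psme2 differed by 0.26 each (adjusted p of 0.417 and 0.557). In 12 members every Val+PA library lay above every Valine library, beside 12.6% of all genes, and 5 of these were the beta subunits Psmb1, Psmb3, Psmb4, Psmb5 and Psmb6. No member had the reverse, beside 12% of all genes. A miss of the threshold does not show that levels were alike, and 3 libraries a group limit what could be seen to changes large against the SEs given.

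Genes that work beside the proteasome were read from 5 further lists, whose genes are not members. Of all genes tested, 21.1% fell and 20.8% rose with Valine, and 18.8% fell and 20.4% rose with Val+PA. Of 9 further assembly factors and 19S subunits, 4 fell and 1 rose with Valine, and 3 fell with Val+PA. Adrm1, a ubiquitin receptor of the cap, stood at 86.3, 78.4 and 70.0 CPM in Control, 38.4, 39.2 and 36.6 in Valine, with 35.2, 49.4 and 34.6 in Val+PA. All treated libraries lay well below Control, and Adrm1 fell 2.06-fold with Valine (-1.04, SE 0.14, adjusted p = 0.000124) and 1.97-fold with Val+PA (-0.98, adjusted p = 0.000205). Psmd5, a chaperone of 19S assembly, stood at 158, 161 and 201 CPM in Control, 85.8, 91.2 and 89.6 in Valine, with 94.2, 89.8 and 103.6 in Val+PA. It fell 1.95-fold with Valine (-0.96, SE 0.11, adjusted p = 3.77e-05), without overlap between treated libraries and Control. Both changes were larger than that of any 19S member. Ecpas, an adaptor of the assembled proteasome, rose with Valine (0.29, SE 0.10, adjusted p = 0.0411), and that call ended without Control 2, Control 3, Val+PA 3 or any Valine library.

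Of the 9 genes of NFE2L1 processing and its partners, 3 rose and 5 fell with Valine, beside 20.8% and 21.1% of all genes. With Val+PA 2 rose and 4 fell, beside 20.4% and 18.8%. Ddi2, the protease that cuts NFE2L1, shares 1749 bp of exon with a gene on its strand and stood at 77.01, 83.2 and 75.6 CPM in Control, 94.3, 92.8 and 96.6 in Valine, with 94.7, 95.3 and 93.7 in Val+PA. All treated libraries lay above Control, and it rose with Valine (0.27, SE 0.09, adjusted p = 0.0292). That call ended without Control 1, Control 3 or any Valine library. Sel1l rose and Vcp and Syvn1, which act with it in withdrawing proteins from the endoplasmic reticulum, fell with Valine (0.61, -0.51 and -1.12). The small MAF partners Maff, Mafg and Mafk fell with Valine, and Mafg did not pass with Val+PA (-0.07, adjusted p = 0.775). Maff stood at 60.0, 55.0 and 92.0 CPM in Control, 21.6, 19.7 and 20.9 in Valine, with 27.1, 49.1 and 30.4 in Val+PA. The treated libraries lay below Control, and Maff fell 3.32-fold with Valine (-1.73, SE 0.23, adjusted p = 0.000106). Nfe2l2, the relative of Nfe2l1 that answers oxidative stress, stood at 101, 94.5 and 45.9 CPM in Control and 121 to 130 in Valine, with 129.9, 87.5 and 89.6 in Val+PA. It rose with Valine (0.65, SE 0.24, adjusted p = 0.0485), and the call ended without Control 3 (0.38, adjusted p = 0.0794), without Val+PA 3 and without any Valine library. With Val+PA the libraries overlapped Control, and Nfe2l2 did not pass (0.35, SE 0.24, adjusted p = 0.285). It passed there in 1 of 21 alternatives.

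Of the 17 genes of ubiquitin and delivery, 6 fell in each treated group, and the other 11 did not pass. Of all genes, 21.1% fell with Valine and 18.8% with Val+PA. Uchl5, a deubiquitinase that docks on Adrm1, stood at 9.07, 8.87 and 10.5 CPM in Control, 5.65, 5.79 and 6.01 in Valine, with 5.38, 4.58 and 5.19 in Val+PA. It fell with Valine (-0.70, SE 0.14, adjusted p = 0.0014) and with Val+PA (-0.91, SE 0.14, adjusted p = 0.000267), with no overlap. Of 7 muscle ubiquitin ligases, 1 rose in each treated group, beside 20.8% and 20.4% of all genes. Fbxo32, known as atrogin-1 and a marker of muscle wasting, stood at 13.1, 10.97 and 10.8 CPM in Control, 44.8, 40.7 and 45.3 in Valine, with 38.7, 36.9 and 41.02 in Val+PA. It rose 3.76-fold with Valine (1.91, SE 0.12, adjusted p = 3.3e-07) and 3.35-fold with Val+PA (1.75, SE 0.12, adjusted p = 5.37e-07), the opposite direction to most 19S genes. Trim63, the other classical wasting ligase, was near its floor, with 31, 62 and 63 counts in the 3 groups, and did not pass (0.73, SE 0.49, adjusted p = 0.256).

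The immunoproteasome subunits, which replace the protease subunits of the core in immune signalling, were low. Psmb8 held 9, 25 and 17 counts in Control, Valine and Val+PA and was not tested, and Psmb9 held 13, 35 and 23 counts and did not pass with Valine (1.13, SE 0.70, adjusted p = 0.219). Psmb9 stood at 0.0962, 0.0304 and 0.362 CPM in Control and 0.245 to 0.44 in Valine, and without Control 3 it passed (2.35, adjusted p = 0.0324). Psmb10, the counterpart of Psmb7, stood at 11.3, 10.24 and 18.5 CPM in Control, 5.11, 6.42 and 5.10 in Valine, with 5.97, 7.62 and 6.92 in Val+PA. The Control libraries lay above all others, and Psmb10 fell 2.40-fold with Valine (-1.26, SE 0.22, adjusted p = 0.000648) and 1.95-fold with Val+PA (-0.96, SE 0.22, adjusted p = 0.00382). Nlrc5, a transactivator of antigen presentation genes, stood at 8.08, 8.39 and 8.94 CPM in Control, 18.2, 19.6 and 18.4 in Valine, with 21.7, 29.2 and 22.8 in Val+PA. All treated libraries lay above Control, and it rose 2.22-fold with Valine (1.15, SE 0.14, adjusted p = 3.84e-05) and 2.90-fold with Val+PA (1.54, SE 0.14, adjusted p = 3.96e-06). Psmb10 and Nlrc5 thus moved in opposite directions in both comparisons, which share their Control libraries.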

How the data were processed

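Total RNA of 9 libraries was sequenced as paired ends from strand-specific libraries, per the labels' protocols. Per the submitters' processing notes, HISAT2, featureCounts and DESeq2 were used with the build GRCm38. No source used here states the strand setting or annotation release behind the counts, so genes that share exons with a neighbour on either strand are uncertain. Deposited counts are whole numbers of reads per gene without normalization. The deposited normalized table holds a signal that, tested on 4498 genes with over 1000 counts in each library, equals the count times 1 factor per gene and 1 per library. It served for levels between genes and for 2 alternatives. Columns of Val+PA were matched to their labels by a shortened code.

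Symbols came from GENCODE M21 (52093 of 53700 IDs, 97%). Counts were filtered with filterByExpr, scaled with TMM and fitted in 1 edgeR 4.0.16 quasi-likelihood model over all libraries (R 4.3.3), with group means as the terms and 6 residual degrees of freedom. P-values were adjusted by Benjamini-Hochberg over 18415 genes. The SE is the absolute log2 fold change over the square root of the F statistic. CPM per library carry counting error, which is larger for genes with fewer counts. Each member held at least 3683 counts over the 9 libraries. Psmb8, Psmb9 and Trim63, which are not members, held far fewer.

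The members, lists and tests were chosen with earlier results of these data known. Named in full were the largest change of each role for Valine, the protease subunits, the activators, Psmf1, Psmg1, Pomp, Nfe2l1, the 5 largest changes of each comparison and any call against its role. From the 5 lists came the called genes with the largest rise and fall, and 8 fixed genes. Sel1l, Vcp and Syvn1, and the further members given by fold change only, were named after their values were seen. Paaf1 is not reported, as its symbol was not matched, and some genes of the lists are not reported here. On simulated counts the fit recovered 64 of 100 genes changed 2-fold and 82 of 100 changed 3-fold for Valine against Control (17960 genes), with 4 unchanged genes called. For Val+PA against Control it recovered 60 and 81 (17958 genes) with 7 unchanged called, and for Val+PA against Valine 63 and 85 (17958 genes) with 7. The simulated counts held no library that stood apart, and every member changed less than 2-fold. These rates therefore do not give the recovery of changes of the size seen in the members.

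Alternatives were DESeq2 1.42.0, limma-voom (limma 3.58.1), a replicate block, RLE factors, scaling by library size alone, fitting only the compared groups, a filter of 1 CPM in 3 libraries or none, a threshold of 0.01, fits without each library in turn and without Control 3 and Val+PA 2, and limma on log2(signal + 1) or log2(signal + 0.1) where the mean signal reached 0.5. No pair of libraries agreed within sampling noise, with a chi-square per degree of freedom of at least 4.01.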

Additional observations from a re-analysis of the deposited data

How the results depend on the processing

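The number of members called ran from 14 (without Valine 1) to 25 (without Val+PA 2) for Valine against Control and from 13 to 23 for Val+PA against Control when 1 library was left out, beside 22 and 17. These counts hold members that fell and members that rose, while the shares of all genes given below are of falls alone. In the fit of all libraries, 3884 of 18415 genes fell and 3834 rose with Valine, and 3471 fell and 3748 rose with Val+PA. Without Control 3 and Val+PA 2, 5104 of 18799 fell and 5068 rose with Valine, and 4621 fell and 4741 rose with Val+PA. The share of all genes that fell moved with the number of members called, from 15.01% without Valine 1 to 24.7% without Val+PA 2 for Valine. For Val+PA it was 15.18% to 15.72% in the 3 fits with 13 members called and 18.85% in the fit with 23 (without Control 3). The stricter threshold of 0.01 left 13 and 11 (13.83% and 12.64% of all genes fell), and leaving out Control 3 and Val+PA 2 gave 31 and 29 (27.15% and 24.58%); the cause was not tested. The other alternatives gave 16 to 24 and 13 to 19, where 12.07% to 25.21% and 11.02% to 22.27% of all genes fell. No setting called a member for Val+PA against Valine. The median change of the members was below 0 against Control in every alternative run. The replicate block gave 21 and 16 calls, where 20.06% and 18.12% of all genes fell. Between libraries of the same number, deviations from the group mean had correlations of 0.09, 0.04 and 0.16 for Valine against Control. For Val+PA against Control they were 0.24, -0.41 and 0.04. The labels do not say whether a number marks a shared day or batch, and with 3 libraries a group these values cannot settle it. The calls of Psmd11 and Ddi2 with Valine and of Psma7 and Ddi2 with Val+PA were lost under the block.

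No called gene changed direction in any alternative. Some genes that had not passed did. With Valine and 1 library left out, Psmb1 ran from -0.027 to 0.172, Psmd4 from -0.063 to 0.051 and Psme2 from -0.136 to 0.308. Psmd4 was also 0.062 with library size alone, 0.004 with no filter, 0 with the CPM filter and 0.027 with limma on the signal at either pseudocount. With Val+PA and 1 library left out, Psma5 ran from -0.379 to 0.124, Psmb4 from -0.07 to 0.109, Psmb5 from -0.387 to 0.037, Psmb6 from -0.044 to 0.116 and Psmg1 from -0.211 to 0.011. Psmb4 was -0.01 with DESeq2 and with RLE factors and -0.002 with only the compared groups. Without Control 3 and Val+PA 2, Psma5 was 0.1 and Psmc6 0.112. The cause was not tested. Library size alone lowered the core count to 2 with Valine and with Val+PA, where 17.83% and 17.07% of all genes fell. The Psmb10, Adrm1, Psmd5, Nlrc5, Maff, Uchl5 and Fbxo32 calls held in each alternative.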
